A study of Mus musculus with 24 samples.

Results

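The 37 genes described here carry fatty acids from the cell surface to the end of oxidation in mouse liver, or regulate that route through the nuclear receptor PPAR alpha. They are a list of gene names drawn up by function, with earlier results of these data known, and all 37 were found among the 56941 genes of the count table. All 37 passed the filter on low counts, which left 20514 genes for testing. The study compared livers of mice that lack the circadian clock gene Bmal1 in the whole body or in the liver with livers of their controls, at circadian times CT2 and CT14. Circadian time is counted in hours from the start of the subjective day, so CT2 is early in the rest phase of a mouse and CT14 early in its active phase.

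The 8 groups held 3 libraries each. Wild-type mice (WT, Bmal1+/+) and global knockouts (KO, Bmal1-/-) came from crosses of heterozygous mice on the C57BL/6J background. Liver knockouts (LKO) carried a floxed Bmal1 gene and Cre recombinase under the albumin promoter (Alb-Cre; Bmal1f/f), which is active in hepatocytes, so other liver cells are not expected targets of the deletion. Their controls (F, Bmal1f/f) carried the same floxed gene without Cre. The sources used here do not give the age, sex or feeding of the mice. Nothing in them says that the 3 libraries of a group came from separate animals, and p-values then measure only the spread between these samples, which may be technical.

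Fatty acids enter the hepatocyte through transporters, are bound by a carrier protein and are activated to acyl-CoA. Long chains cross the mitochondrial membranes as carnitine esters and are then shortened in a repeating spiral of dehydrogenation, hydration, second dehydrogenation and thiolysis, while peroxisomes shorten very long, branched and some unsaturated chains. The acetyl-CoA formed feeds ketone body synthesis in fasting, and PPAR alpha, a receptor for fatty acids, is known as the main activator of these genes in liver.

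Polyadenylated RNA was sequenced to between 88995259 and 131544733 counts per library. Bmal1 counts fitted the labels at CT2, where the KO libraries held 7.47, 7.15 and 7.57 CPM (counts relative to the scaled library total) against 30.7, 33.8 and 31.2 in WT, and the LKO libraries 7.63, 7.91 and 6.57 against 29.1, 29.8 and 26.6 in F. At CT14 the controls stood lower than at CT2, at 6.46, 2.93 and 8.16 CPM in WT and 3.26, 14.97 and 10.4 CPM in F, against 7.10, 6.66 and 7.53 CPM in KO and 5.96, 5.49 and 5.46 CPM in LKO. The groups overlapped there and neither knockout was called by edgeR. The counts cover the whole gene, so they do not show which part of it was deleted. Summed hepatocyte markers ran from 78530 to 131400 CPM in WT and F and from 49780 to 82890 CPM in KO and LKO. Of the 8 markers, Alb and Tat were lower in KO and Alb in LKO, while the others were not called. Pancreatic acinar transcripts summed to 2064 and 558.1 CPM in replicate 3 of F at CT2 and at CT14, against at most 101.6 CPM elsewhere. Spermatid transcripts summed to at least 4.243 CPM in all 12 F and LKO libraries and in KO CT2 replicate 2 and KO CT14 replicate 1, and to at most 0.4075 CPM in the other 10. Ddx3y, a Y-linked gene, stood at 3.857 to 9.609 CPM in KO CT2 replicate 1, F CT2 replicate 3 and LKO CT2 replicate 3, and at 25.67 to 48.47 CPM in the other 21 libraries.

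Levels in TPM, which are corrected for transcript length as well as library size, spanned more than 3 orders of magnitude across the 37 genes. Fabp1, which encodes the liver fatty acid binding protein, had the highest mean over the 24 libraries, 5763 TPM. It was followed by Acaa2, the mitochondrial thiolase, at 921 TPM, Acaa1b, a peroxisomal thiolase, at 668 TPM, and Etfb, a subunit of the electron transfer flavoprotein, at 663 TPM. At the low end were Vnn1, a pantetheinase induced by PPAR alpha, at 11.4 TPM, the kinase Pdk4 at 10.1 TPM and the coactivator Ppargc1a at 1.03 TPM. Pdk4 varied most between groups, with a highest group mean 15.2 times its lowest, followed by Crot at 5.17, Pex11a at 3.12 and Acaa1b at 3.10 times. By group mean in TPM, F at CT2 was the lowest group for 18 of the 37 genes and LKO at CT14 the highest for 17. The share of such genes over all genes was not computed. The scale matters here: over all genes the median log2 value of LKO against F at CT14 was 0.21 on TPM and -0.01 on counts.

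**Figure D1:**
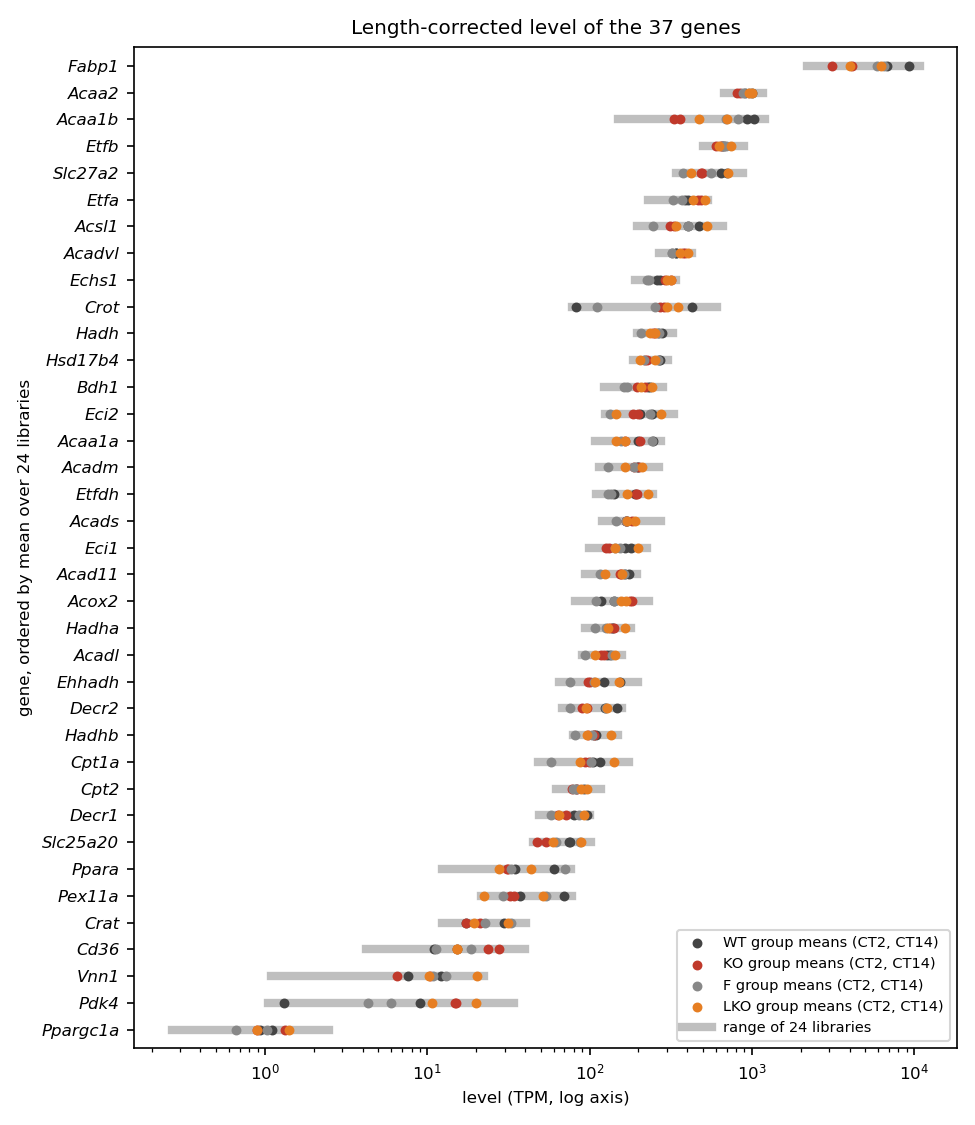
Length-corrected level of each gene on a log axis in TPM, ordered by its mean over 24 libraries, with the bar spanning all libraries and the points marking the 8 group means. Fabp1 lies at the top and Ppargc1a at the bottom, and the points of Pdk4 and Crot are the most spread.

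The first comparison asked how loss of Bmal1 in the whole body changed these genes. Taken as the mean over both times, 10 of the 37 genes were lower in KO than in WT and 1 was higher. Of all genes tested 2.29% were lower and 3.11% higher, 5.4% together. The lower genes were Fabp1, Slc27a2 and Acsl1 of uptake and activation, Slc25a20 of the carnitine shuttle, Decr1, Decr2 and Eci1 of the auxiliary enzymes, and Acaa1b, Hsd17b4 and Pex11a of the peroxisome. Pdk4, which restrains glucose oxidation, was the gene that was higher. The median log2 fold change over the 37 genes was -0.34 and over all genes tested 0.01, and 30 of the 37 values were negative. In bulk liver RNA, fewer cells of a type and less RNA per cell cannot be told apart. The hepatocyte marker sum was lower in KO, and also in LKO, at 58510 to 77550 CPM at CT2 and 55910 to 67260 CPM at CT14. Of its markers only Alb and Tat were called in KO. The part of this sum in the result was not tested. Without the 2 KO libraries with spermatid transcripts 14 of the 37 genes were called, against 4.07% of all genes, and without the 3 libraries low in Ddx3y 16, against 7.82%.

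By time, 12 of the 37 genes were called at CT14, 2 higher and 10 lower, against 3.15% and 2.15% of all genes, 5.31% together. Leaving out WT CT14 replicate 2 left 6 calls, and 632 of the 21312 genes then tested were called. At CT2 edgeR called 0 of the 37, against 0.517% of all genes, and DESeq2 called 2, against 1.81%. An unadjusted p under 0.05 in edgeR was found for 10 of the 37. The share over all genes is not given here, so that count has no background. KO libraries did not overlap those of WT at CT2 for 1 gene that was higher and 10 that were lower, against 7.1% and 6.94% of all genes in each direction. At CT14 the groups did not overlap for 3 genes that were higher and 16 that were lower, against 13.4% and 12.5% of all genes, 25.9% together. The genes whose libraries were all below those of WT at both times numbered 7, against 1.92% of all genes: Slc27a2, Fabp1, Slc25a20, Eci1, Decr2, Hsd17b4 and Acaa1b.

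**Figure D2:**
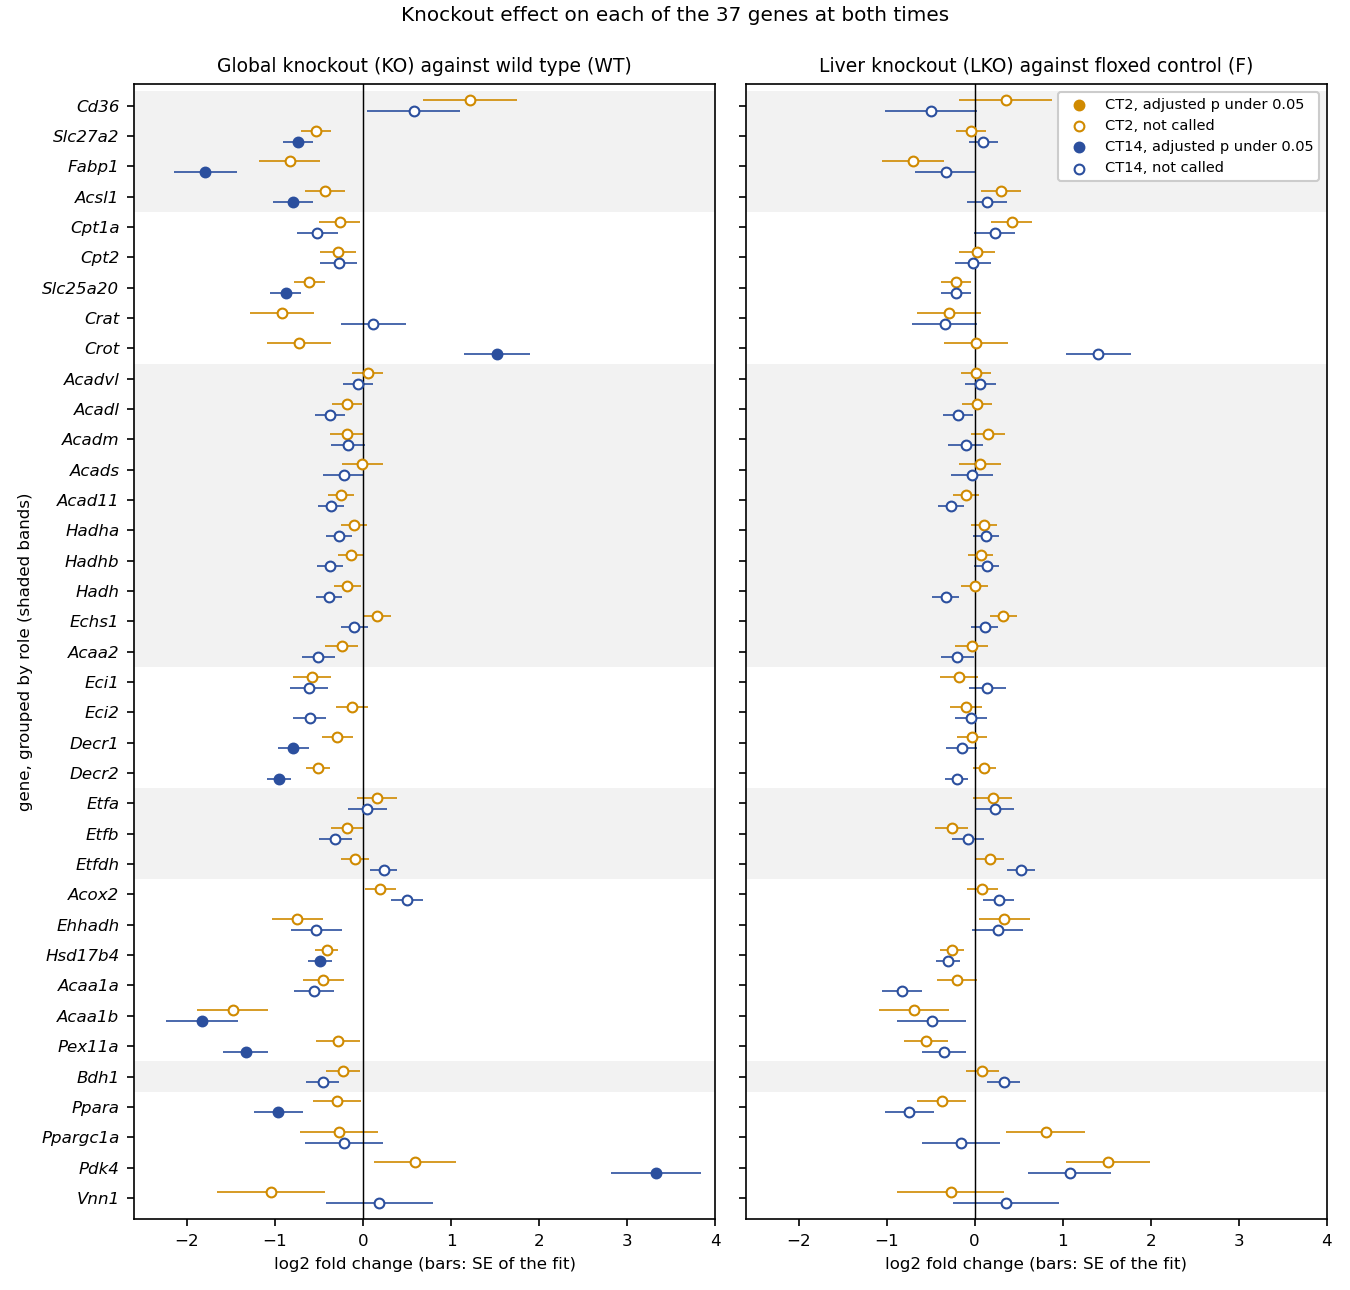
Log2 fold change of each gene in KO against WT (left) and LKO against F (right) at CT2 (orange) and CT14 (blue), with bars of 1 SE, filled where the adjusted p was under 0.05. At CT14 in KO 10 filled points lie left of 0 and Crot and Pdk4 lie right of it, while none is filled at a single time in LKO.

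Fabp1 (ENSMUSG00000054422) encodes the carrier that binds fatty acids in the hepatocyte cytoplasm. Its WT libraries held 1974, 2740.2 and 2241 CPM at CT2, then 2984, 3331 and 3774 CPM at CT14. Its KO libraries held 1856, 1341 and 705 CPM and 1227, 997 and 690.5 CPM at these times, so that every KO library lay below every WT library of the same time. The log2 fold change was -1.31 ± 0.25 (SE, adjusted p = 0.00268) as the mean of both times and -1.79 ± 0.36 (SE, adjusted p = 0.00393) at CT14. The promoter of Fabp1 is shown because it carries a near match to the direct repeat 1 (DR1), the element that PPAR alpha binds with its partner RXR. The match is in capitals in the 250 bases before the gene start, from RefSeq on build GRCm38.p6, chr6:71199629-71199878, plus strand:
Fabp1: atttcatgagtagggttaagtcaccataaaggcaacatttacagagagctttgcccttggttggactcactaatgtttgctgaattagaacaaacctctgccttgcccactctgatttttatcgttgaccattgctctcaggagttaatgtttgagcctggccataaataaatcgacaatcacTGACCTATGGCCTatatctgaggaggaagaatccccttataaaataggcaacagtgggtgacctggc
The match starts 67 bases before the start and differs from the exact repeat at up to 2 positions.

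Slc27a2 (ENSMUSG00000027359), a fatty acid transporter that also activates very long chains, had WT levels of 1080.3, 999 and 1336 CPM at CT2 and, at CT14, 1127, 1458 and 1394 CPM. The KO values were 705, 872 and 787 CPM at CT2, then 972, 698 and 710.2 CPM at CT14. No KO library reached a WT library of its time, and the mean log2 fold change was -0.64 ± 0.12 (SE, adjusted p = 0.00231). Acsl1 (ENSMUSG00000018796), the main long-chain acyl-CoA synthetase of liver, was at 734, 1114 and 993 CPM in WT and 523, 961 and 618 CPM in KO at CT2, with overlap between the groups. At CT14 it was at 968, 1222 and 1334 CPM in WT and 822, 641 and 569.6 CPM in KO, without overlap. Its mean log2 fold change was -0.61 ± 0.16 (SE, adjusted p = 0.0265), a call lost with any 1 of the 12 libraries left out other than WT CT2 replicate 1, WT CT14 replicate 1, KO CT2 replicate 2 and KO CT14 replicate 1 (adjusted p up to 0.0729). Cd36, a fatty acid translocase, pointed the other way: KO held 35.5, 37.002 and 59.1 CPM against 16.6, 13.2 and 26.7 CPM in WT at CT2 without overlap, but the log2 difference of 1.22 ± 0.53 (SE, adjusted p = 0.494) was not called by edgeR. The authors' deposited table calls it, at 1.22 (adjusted p = 0.00338). Of 6 adipocyte markers Lep and Retn were at 0 CPM in all WT and KO libraries, and the 6 summed to 7.815 to 11.91 CPM in KO and 5.169 to 6.768 CPM in WT at CT2. Their part in the level of Cd36 was not tested.

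In the carnitine shuttle, Slc25a20 (ENSMUSG00000032602), the carrier that exchanges acylcarnitine for carnitine across the inner mitochondrial membrane, fell. It stood at 70.9, 86.5 and 86.8 CPM in WT and 59.1, 54.2 and 46.9 CPM in KO at CT2, and at 83.5, 87.4 and 91.03 CPM in WT and 52.8, 41.99 and 47.8 CPM in KO at CT14. The groups were apart at both times, and the mean log2 fold change was -0.74 ± 0.12 (SE, adjusted p = 0.000664). Cpt1a (ENSMUSG00000024900), which encodes the rate-limiting enzyme that forms acylcarnitines, was at 296, 216 and 316 CPM in WT and 133, 299 and 257 CPM in KO at CT2, and at 295, 357 and 324 CPM in WT and 265, 175 and 241 CPM in KO at CT14. WT and KO overlapped at CT2 and not at CT14, and the mean log2 fold change of -0.39 ± 0.16 (SE, adjusted p = 0.195) was not called. Cpt2, the partner of Cpt1a at the inner membrane, had -0.28 ± 0.14 (SE) and Crat, which forms short-chain carnitine esters, -0.40 ± 0.26 (SE), neither called.

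Crot (ENSMUSG00000003623), the peroxisomal carnitine octanoyltransferase, was the 1 gene of the shuttle called higher in KO, at CT14. At CT14 the WT libraries held 169.5, 164 and 146 CPM and the KO libraries 538, 440.1 and 403 CPM, a log2 ratio of 1.52 ± 0.37 (SE, adjusted p = 0.0169). At CT2 the order was the opposite, with 623, 646 and 1065 CPM in WT and 367, 550.4 and 496 CPM in KO, a difference of -0.72 ± 0.37 (SE, adjusted p = 0.591) that was not called although the groups did not overlap. The call at CT14 was lost with any 1 of the 6 libraries left out other than KO CT14 replicate 2 and KO CT14 replicate 3 (adjusted p up to 0.0728). It was also lost without both KO libraries that carried spermatid transcripts, at an adjusted p of 0.0739. The authors' deposited table calls Crot at CT14, at 1.53 (adjusted p = 9.51e-18).

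None of the 10 genes of the mitochondrial spiral was called by edgeR in KO against WT, as the mean or at either time. The authors' deposited table calls 1 of them at CT14, Acaa2, at -0.51 (adjusted p = 0.0398). They were the acyl-CoA dehydrogenases Acadvl, Acadl, Acadm, Acads and Acad11, both subunits of the trifunctional protein, Hadha and Hadhb, the hydroxyacyl-CoA dehydrogenase Hadh, Echs1 and Acaa2. Their mean log2 fold changes ran from -0.37 for Acaa2 to 0.03 for Echs1, the short-chain enoyl-CoA hydratase, with a median of -0.22. An unadjusted p under 0.05 was found for 5 of the 10. The share over all genes is not given here, so that count has no background. Acadm (ENSMUSG00000062908), the medium-chain acyl-CoA dehydrogenase, stood at 202, 238 and 283 CPM in WT and 236, 208 and 193 CPM in KO at CT2, and at 212, 266 and 307 CPM in WT and 323, 194 and 179 CPM in KO at CT14. Its groups overlapped at both times, with a mean log2 difference of -0.18 ± 0.14 (SE, adjusted p = 0.581). Hadha (ENSMUSG00000025745), the alpha subunit of the trifunctional protein that catalyses the later steps for long chains, stood at 319, 359.5 and 332 CPM in WT and 336, 321 and 285 CPM in KO at CT2 and at 331, 366 and 396 CPM in WT and 353, 274 and 278 CPM in KO at CT14, a difference of -0.19 ± 0.10 (SE, adjusted p = 0.379). At CT14 all 10 values were negative, from -0.51 to -0.06. The genes of electron transfer, Etfa, Etfb and Etfdh, which pass electrons from the dehydrogenases to ubiquinone, lay between -0.25 and 0.10 and none was called.

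Of the 4 auxiliary enzymes, which let unsaturated chains enter the spiral, 3 fell. Decr2 (ENSMUSG00000036775), the peroxisomal 2,4-dienoyl-CoA reductase, stood at 158, 165 and 179 CPM in WT and 116, 128 and 109 CPM in KO at CT2. At CT14 it stood at 185, 218 and 221 CPM in WT and 114, 102 and 108 CPM in KO. The groups were apart at both times with little spread, and the mean log2 fold change of -0.73 ± 0.10 (SE, adjusted p = 7.13e-05) had the lowest adjusted p of the 37 genes in this comparison. Decr1 (ENSMUSG00000028223), the mitochondrial reductase, overlapped between WT (129, 166 and 142 CPM) and KO (146, 117 and 94.5 CPM) at CT2. It was apart at CT14, at 164, 203 and 184 CPM in WT and 124, 98.1 and 96.3 CPM in KO, with a mean log2 fold change of -0.54 ± 0.12 (SE, adjusted p = 0.011). Eci1 (ENSMUSG00000024132), a mitochondrial enoyl-CoA isomerase, stood at 97.3, 157 and 118 CPM in WT and 97.05, 88.6 and 64.3 CPM in KO at CT2 and at 109, 129 and 127 CPM in WT and 99.8, 77.3 and 61.8 CPM in KO at CT14. The WT and KO libraries of Eci1 were apart at both times, by a narrow margin at CT2, and its mean log2 fold change was -0.59 ± 0.15 (SE, adjusted p = 0.023). That call was lost without WT CT2 replicate 2, WT CT14 replicate 2, KO CT2 replicate 3 or KO CT14 replicate 3 (adjusted p up to 0.0734). Eci2, its relative found also in peroxisomes, was not called, at -0.61 ± 0.18 (SE, adjusted p = 0.0602) at CT14.

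**Figure D3:**
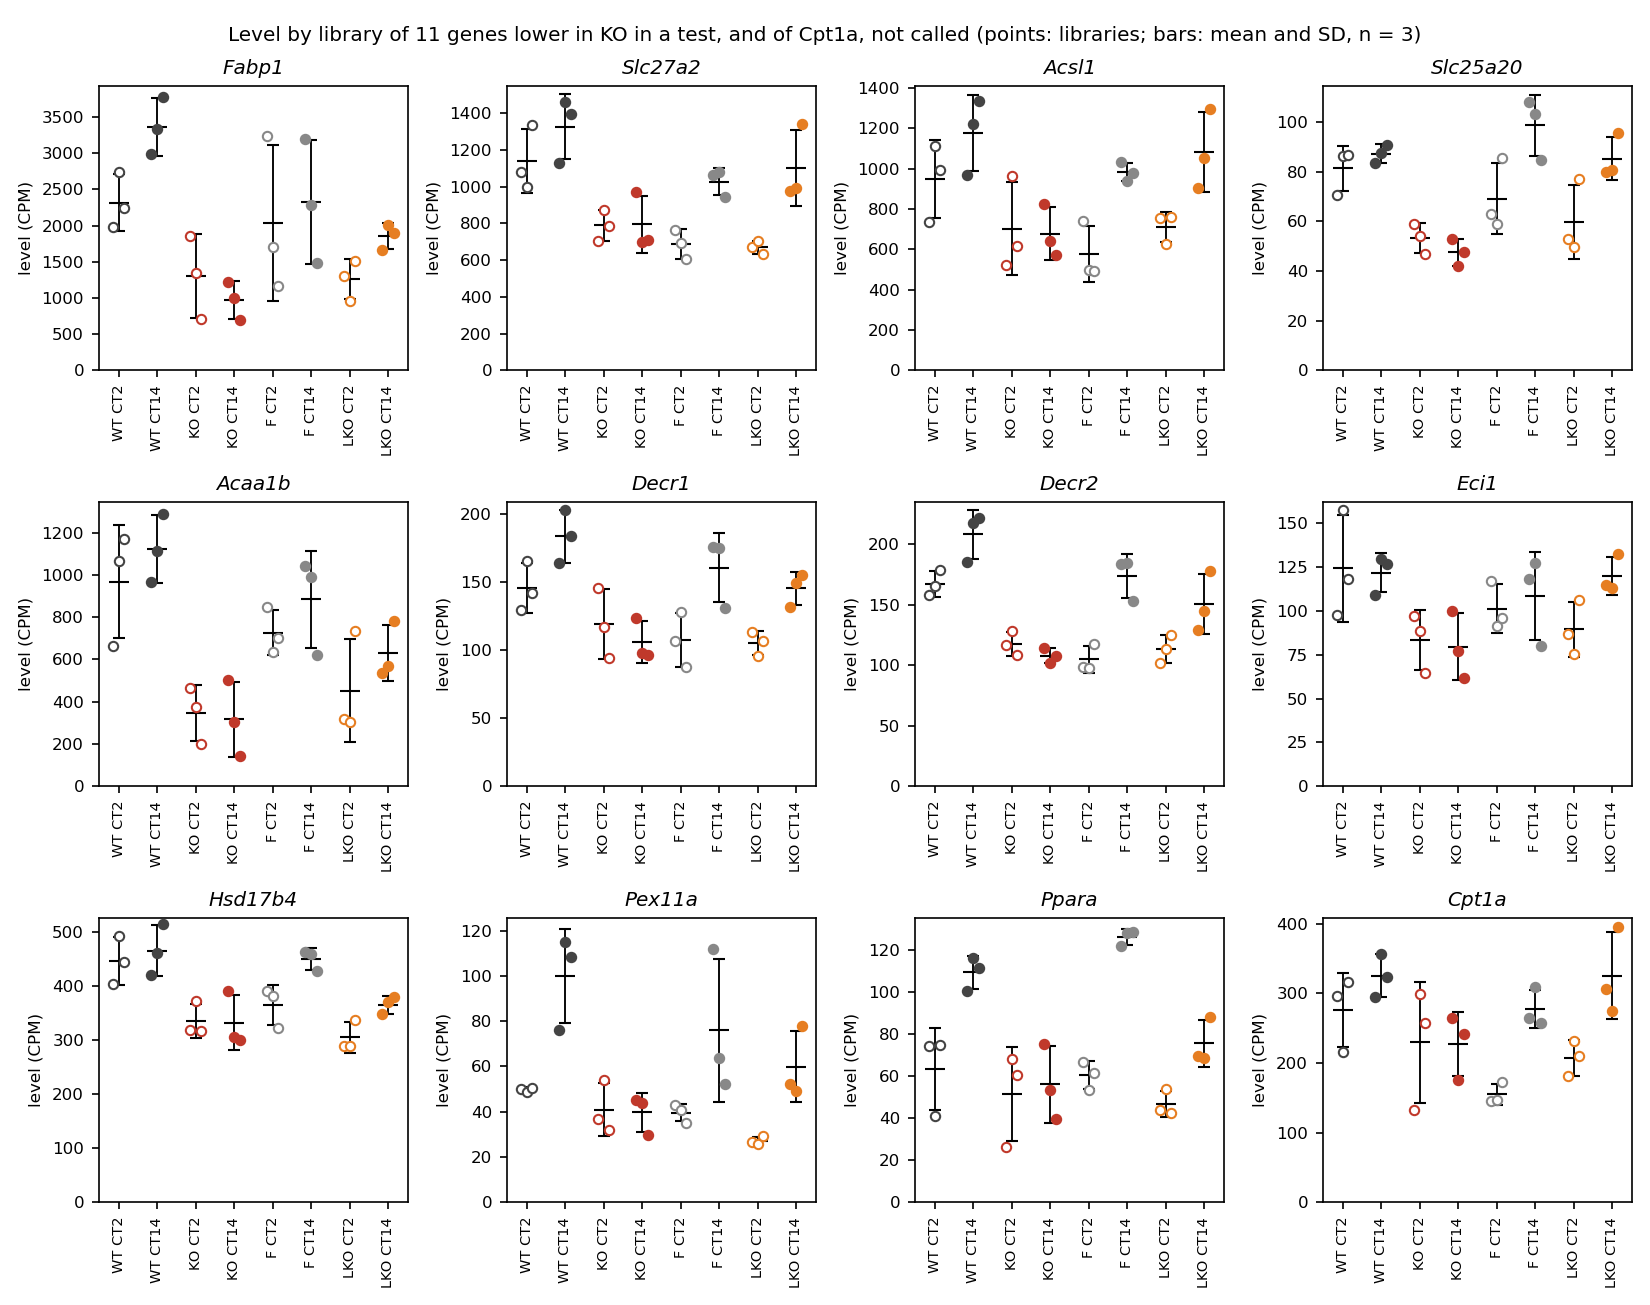
Level in CPM by library of the 11 genes that were lower in KO in at least 1 test and of Cpt1a, which was not called, with CT2 open, CT14 filled and bars for the group mean and SD of 3 libraries. For Slc25a20, Decr2 and Acaa1b all KO points lie below all WT points, whereas the Cpt1a points of KO and WT overlap at CT2.

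In the peroxisome, Acaa1b (ENSMUSG00000010651), a 3-ketoacyl-CoA thiolase, had the most negative log2 fold change of the 37. At CT2 and CT14 WT held 664, 1066 and 1171 CPM and 966, 1114 and 1288 CPM, and KO 465, 374 and 200.4 CPM and 502, 304 and 144 CPM. No KO library reached a WT library at either time, and the mean log2 fold change was -1.65 ± 0.29 (SE, adjusted p = 0.00117). Its paralog Acaa1a was not called, at -0.50 ± 0.16 (SE, adjusted p = 0.0769). The longest coding sequences of the paralogs matched at 96.5% of 1275 aligned bases in the GRCm38 annotation, so reads may have been split between them in counting and both values are uncertain.

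Hsd17b4 (ENSMUSG00000024507), the D-bifunctional protein of the peroxisomal spiral, stood at 404, 493 and 445 CPM in WT and 318, 373 and 317 CPM in KO at CT2 and at 421, 462 and 514 CPM in WT and 391.6, 305 and 301 CPM in KO at CT14. The groups were apart at both times, and the mean log2 fold change was -0.45 ± 0.10 (SE, adjusted p = 0.00634). In limma on log2 TPM its adjusted p was 0.0883. Pex11a (ENSMUSG00000030545), a membrane protein of peroxisome division and a PPAR alpha target, stood at 76.2, 115 and 109 CPM in WT and 45.3, 43.9 and 29.9 CPM in KO at CT14, without overlap. At CT2 it stood at 50.1, 48.6 and 50.7 CPM in WT and 36.99, 54.04 and 31.9 CPM in KO, with 1 KO library above all of WT. The log2 fold change was -1.33 ± 0.26 (SE, adjusted p = 0.00267) at CT14 and -0.81 ± 0.18 (SE, adjusted p = 0.00899) as the mean. Ehhadh, the L-bifunctional protein, and Acox2, an oxidase of branched chains and bile acid precursors, were not called, at -0.64 ± 0.21 (SE, adjusted p = 0.0782) and 0.35 ± 0.13 (SE, adjusted p = 0.123).

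Among the regulators, Ppara (ENSMUSG00000022383) stood at 100.5, 116 and 111 CPM in WT and 75.4, 53.2 and 39.4 CPM in KO at CT14, without overlap. At CT2 the values of 74.4, 40.97 and 74.6 CPM in WT and 26.3, 68.1 and 60.5 CPM in KO overlapped. The log2 fold change at CT14 was -0.96 ± 0.28 (SE, adjusted p = 0.0462), close to the threshold and lost with any 1 of the 6 libraries left out other than KO CT14 replicate 1 (adjusted p up to 0.206). Over both times it was -0.63 ± 0.20 (SE, adjusted p = 0.0656). The authors' deposited tables call Ppara at CT14 (adjusted p = 0.00108) and not over both times (adjusted p = 0.126). Pdk4 (ENSMUSG00000019577), the kinase that inactivates pyruvate dehydrogenase and is known to be induced by PPAR alpha, rose: KO held 28.04, 30.8 and 27.2 CPM at CT14 against 3.23, 2.48 and 2.87 CPM in WT. At CT2 KO held 27.4, 34.1 and 24.9 CPM and WT 8.04, 33.9 and 15.4 CPM, which overlapped. The log2 fold change was 3.32 ± 0.51 (SE, adjusted p = 0.000436) at CT14, a fold of 10.02, and 1.96 ± 0.34 (SE, adjusted p = 0.00138) as the mean. Summed muscle markers, from a tissue that also expresses Pdk4, reached 9.02 CPM in KO CT14 replicate 2 and at most 0.745 CPM in the other WT and KO libraries, and their part in the level of Pdk4 was not tested. Ppargc1a and Vnn1 were not called, at -0.24 ± 0.31 and -0.43 ± 0.43 (SE), and neither was Bdh1, which reduces acetoacetate to 3-hydroxybutyrate, at -0.34 ± 0.13 (SE, adjusted p = 0.163).

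The scale affected the size of these values. In limma on log2(TPM + 0.1) the median over all genes in KO against WT was 0.14, and relative to it the median of the 37 genes was -0.32. That fit called 2 genes higher and 7 lower, against 1 and 10 with counts. Of all genes it called 8.1%, against 5.4% with counts.

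The other genes of the pathway gave 17 calls among 76 that passed the filter, 2 higher and 15 lower, with the same 5.4% of all genes as background. Of the PPAR alpha targets, 8 of 20 were lower and 0 higher, with a median log2 fold change of -0.80. Among them Aldh3a2, a fatty aldehyde dehydrogenase, had -1.63 ± 0.23 (SE, adjusted p = 0.000125), the retinol saturase Retsat -1.51 ± 0.30 (SE, adjusted p = 0.00461), the acyl-CoA thioesterase Acot4 -0.89 ± 0.16 (SE, adjusted p = 0.00119), Mgll, the monoacylglycerol lipase, -0.96 ± 0.18 (SE, adjusted p = 0.00202) and Cidec, a lipid droplet protein, -1.20 ± 0.29 (SE, adjusted p = 0.0177). The omega-hydroxylases Cyp4a10 and Cyp4a32 had -2.45 ± 0.63 (SE, adjusted p = 0.0287) and -0.90 ± 0.26 (SE, adjusted p = 0.0466), and the thioesterase Acot1 -1.82 ± 0.50 (SE, adjusted p = 0.0379). Those 3 share 85.5% to 97.2% of coding bases with a paralog and are uncertain, and the calls were lost without any 1 of 8, 8 and 9 of the 12 libraries.

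Of the other peroxisomal genes, Abcd3, a peroxisomal fatty acid transporter, fell by 0.68 on the log2 scale (adjusted p = 0.00441). Of the 10 other genes of uptake and activation, Acsm5, a medium-chain acyl-CoA synthetase, had -0.67 ± 0.11 (SE, adjusted p = 0.000512) and the carnitine transporter Slc22a5 -0.56 ± 0.15 (SE, adjusted p = 0.0297), the second lost with any 1 of the 12 libraries left out other than WT CT14 replicate 1, KO CT2 replicate 2 and KO CT14 replicate 1 (adjusted p up to 0.0872). Of 7 genes of ketone bodies, Acat1, which makes acetoacetyl-CoA, had -0.44 ± 0.12 (SE, adjusted p = 0.031), a call lost with any 1 of the 12 libraries left out other than WT CT2 replicate 1, WT CT14 replicate 1, KO CT2 replicate 1 and KO CT14 replicate 1 (adjusted p up to 0.0866), and Slc16a1, a monocarboxylate transporter that carries ketone bodies, had 0.58 ± 0.11 (SE, adjusted p = 0.00196). Of 16 regulators, Ppard was higher at 1.52 ± 0.19 (SE, adjusted p = 3.17e-05), and Pparg and the coactivator Lpin1 were lower at -1.06 ± 0.23 (SE, adjusted p = 0.00725) and -1.26 ± 0.31 (SE, adjusted p = 0.0178). The call of Lpin1 was lost without WT CT2 replicate 2, WT CT14 replicate 2 or KO CT2 replicate 1 (adjusted p up to 0.0621). None of 6 genes of mitochondrial oxidation and none of 6 of pyruvate dehydrogenase control was called.

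At CT14 alone, 14 of these 76 genes were called, 4 higher and 10 lower, against 3.15% and 2.15% of all genes. Beside Ppard at 2.28 ± 0.27 (SE, adjusted p = 2e-05) and Slc16a1 at 1.11 ± 0.15 (SE, adjusted p = 0.00011), the higher genes were Hacl1, a lyase of branched-chain oxidation, at 0.97 ± 0.22 (SE, adjusted p = 0.00882) and Plin2, a lipid droplet coat protein, at 0.91 ± 0.18 (SE, adjusted p = 0.00382). Lpin1 was lowest, with 459, 595 and 175 CPM in WT and 37.02, 40.04 and 50.8 CPM in KO, a log2 ratio of -3.27 ± 0.47 (SE, adjusted p = 0.000198). Bdh2, a cytosolic dehydrogenase, and Acacb, the acetyl-CoA carboxylase whose product inhibits Cpt1a, were also lower, at -1.10 ± 0.28 (SE, adjusted p = 0.0209) and -1.08 ± 0.29 (SE, adjusted p = 0.0311). The other lower genes were Cidec, Aldh3a2, Mgll, Retsat, Acot4, Acsm5 and Abcd3, from -1.83 for Cidec to -0.75 for Abcd3. Calls that were lost without at least 1 of the 6 libraries were those of Retsat (5 libraries), Abcd3 and Acacb (4 each), Acot4 and Bdh2 (3 each), and Hacl1 and Cidec (1 each). At CT2 Aldh3a2 was the 1 gene called, at -1.50 ± 0.32 (SE, adjusted p = 0.0331), lost with any 1 of the 6 libraries left out other than WT CT2 replicate 1 (adjusted p up to 0.181).

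The second comparison asked what loss of Bmal1 in hepatocytes alone did to the same genes. As the mean of both times 1 of the 37 genes was higher and 0 were lower, against 1.7% and 1.43% of all genes, 3.13% together, and the median log2 fold change was 0.00. At CT2 and at CT14 edgeR called 0 of the 37, against 0.4% and 1.73% of all genes, of which 0.814% and 0.912% were higher and lower at CT14. Leaving out LKO CT2 replicate 3 gave 4 calls over both times, and 636 of the 21339 genes then tested were called. Leaving out the 3 libraries low in Ddx3y gave 3, against 3.93% of all genes. Of those 3 calls 2 were higher and 1 lower, and none was Pdk4. At CT2 and CT14 DESeq2 called 1 and 3 of the 37, against 2% and 3.69% of all genes. An unadjusted p under 0.05 in edgeR was found for 3 and 7 of the 37. The shares over all genes are not given here, so those counts have no background. In limma on log2(TPM + 0.1) the median over all genes was 0.18, and relative to it the median of the 37 was 0.01.

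The 1 gene called was Pdk4. At CT2 and CT14 LKO held 20.7, 61.7 and 30.04 CPM and 19.9, 18.4 and 20.8 CPM, whereas F held 11.2, 21.2 and 6.98 CPM and 5.77, 15.2 and 6.96 CPM. The groups overlapped at CT2 and not at CT14, and the mean log2 fold change was 1.298 ± 0.33 (SE, adjusted p = 0.0371). The call was lost with any 1 of the 12 libraries left out other than F CT2 replicate 2, F CT14 replicate 2, LKO CT2 replicate 1 and LKO CT2 replicate 3 (adjusted p up to 0.124). The Pdk4 call was also lost in 4 of 9 other alternatives. These were no filter and leaving out the KO libraries with spermatid transcripts, the F libraries with pancreatic transcripts or the libraries low in Ddx3y. The library with the highest Pdk4 value, LKO CT2 replicate 2, also had the highest summed skeletal and heart muscle markers, 29.4 CPM. Those of LKO CT2 replicate 1 and F CT2 replicate 2 summed to 8.70 and 7.57 CPM. The sum lay between 0.403 and 0.745 CPM in the other F libraries, where Pdk4 ran from 5.77 to 15.2 CPM, and between 0.484 and 2.42 CPM in the other LKO libraries, where it ran from 18.4 to 30.0 CPM. Of the 7 muscle markers, Myh6 was at 0 CPM in LKO CT2 replicate 2 and the other 6 were detected there. Their part in the level of Pdk4 was not tested, and Pdk4 is expressed in muscle.

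The 10 genes that were lower in KO had values nearer 0 in LKO. Decr2 stood at 98.9, 98.2 and 118 CPM in F and 102, 113 and 125 CPM in LKO at CT2, and at 184, 184 and 153 CPM in F and 129, 145 and 178 CPM in LKO at CT14, with overlap at both times and a mean log2 difference of -0.05 ± 0.10 (SE, adjusted p = 0.952). Slc27a2 had 0.03 ± 0.12 (SE, adjusted p = 0.985), Slc25a20 -0.21 ± 0.12 (SE, adjusted p = 0.533) and Acsl1 0.22 ± 0.16 (SE, adjusted p = 0.684). Fabp1 stood at 3240.4, 1699 and 1170.1 CPM in F and 1302, 959 and 1507 CPM in LKO at CT2 and at 3195, 2290.0 and 1488 CPM in F and 1656, 2002 and 1896 CPM in LKO at CT14. The spread of Fabp1 in F was wide, and the difference of -0.51 ± 0.25 (SE, adjusted p = 0.395) was not called. Acaa1b had -0.59 ± 0.28 (SE, adjusted p = 0.387), Pex11a -0.45 ± 0.18 (SE, adjusted p = 0.244), Hsd17b4 -0.28 ± 0.10 (SE, adjusted p = 0.14), Decr1 -0.09 ± 0.12 (SE, adjusted p = 0.918) and Eci1 -0.02 ± 0.15 (SE, adjusted p = 0.999), none of them called.

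At CT14 some genes lay apart between LKO and F without a call by edgeR. DESeq2 called 2 of the 37 higher and 1 lower there, against 3.69% of all genes in both directions together. Crot stood at 185, 231 and 214 CPM in F and 525, 518 and 627 CPM in LKO, a log2 difference of 1.41 ± 0.37 (SE, adjusted p = 0.0574), the same direction as in KO. Ppara stood at 122, 128 and 129 CPM in F and 69.6, 68.5 and 88.2 CPM in LKO, a difference of -0.74 ± 0.28 (SE, adjusted p = 0.255). Acaa1a stood at 276, 299 and 280.2 CPM in F and 141, 144 and 198 CPM in LKO, a difference of -0.83 ± 0.23 (SE, adjusted p = 0.076). Etfdh was higher in LKO, at 262, 295 and 298 CPM against 203, 214 and 177 CPM, a difference of 0.53 ± 0.16 (SE, adjusted p = 0.101). The authors' deposited table calls all 4, with adjusted p of 6.24e-22 for Crot, 3.28e-06 for Ppara, 4.81e-06 for Acaa1a and 0.000353 for Etfdh. In all, LKO lay above F without overlap at CT14 for 5 of the 37 genes (Crot, Etfa, Etfdh, Bdh1 and Pdk4) and below it for 5 (Acad11, Hadh, Hsd17b4, Acaa1a and Ppara), against 11.9% and 11.7% of all genes. At CT2 Cpt1a lay above, at 181, 232 and 210.1 CPM in LKO against 146, 147 and 173 CPM in F, and Pex11a below, against 6.1% and 4.46% of all genes. Cpt1a, Acadm and Hadha had mean log2 differences of 0.33 ± 0.16, 0.03 ± 0.14 and 0.12 ± 0.10 (SE), none called.

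The difference between the effects was tested directly. The KO effect minus the LKO effect was called for 0 of the 37 genes by edgeR, against 0.107% of all genes. DESeq2 called 3, against 1.06% of all genes. An unadjusted p under 0.05 in edgeR was found for 12 of the 37. The share over all genes is not given here, so that count has no background. The median of the difference was -0.28 over the 37 genes and 0.02 over all genes, and 33 of the 37 values were negative. This difference also contains that between the 2 controls. F against WT had a median of -0.22 over the 37 genes, with 30 values negative. Decr2 and Slc27a2, the 2 genes called in F against WT, had -0.47 and -0.55 there. The part of the controls in the difference was not tested. Decr2 came closest to the threshold, at -0.68 ± 0.14 (SE, adjusted p = 0.0521), followed by Slc27a2 at -0.67 ± 0.17 (SE, adjusted p = 0.158) and Acsl1 at -0.84 ± 0.23 (SE, adjusted p = 0.194). Cpt1a had -0.72 ± 0.23 (SE, adjusted p = 0.336). By edgeR, calls in KO without calls in LKO are therefore not a shown difference.

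Of the other pathway genes, 6 of 76 were called in LKO as the mean of both times, 3 higher and 3 lower, against 1.7% and 1.43% of all genes. Ppard, at 1.03 ± 0.18 (SE, adjusted p = 0.00213), and Slc16a1, at 0.46 ± 0.11 (SE, adjusted p = 0.0188), were higher, as in KO, the second call lost without F CT14 replicate 1, F CT14 replicate 3, LKO CT14 replicate 1 or LKO CT14 replicate 3 (adjusted p up to 0.0656). Aldh3a2, at -1.30 ± 0.22 (SE, adjusted p = 0.00163), and Acot4, at -0.80 ± 0.16 (SE, adjusted p = 0.00441), were lower, also as in KO. Acacb was lower at -1.15 ± 0.21 (SE, adjusted p = 0.0022). Cyp4a32, whose count may include reads of its paralogs, was higher at 0.96 ± 0.26 (SE, adjusted p = 0.0484), opposite to its value in KO, a call lost with any 1 of the 12 libraries left out other than F CT14 replicate 1, LKO CT2 replicate 1 and LKO CT14 replicate 1 (adjusted p up to 0.137). At CT14 Ppard stood at 9.33, 13.04 and 11.3 CPM in F and 52.7, 53.5 and 48.3 CPM in LKO, a log2 ratio of 2.1997 ± 0.27 (SE, adjusted p = 6.53e-05). Acot4 stood at 63.7, 80.4 and 66.01 CPM in F and 28.5, 21.3 and 22.3 CPM in LKO at CT14, -1.54 ± 0.22 (SE, adjusted p = 0.000386). Aldh3a2 and Acacb were lower there at -1.67 ± 0.32 (SE, adjusted p = 0.00582) and -2.51 ± 0.30 (SE, adjusted p = 6.53e-05), and Slc16a1 was higher at 0.61 ± 0.15 (SE, adjusted p = 0.0394). The CT14 call of Slc16a1 was lost without any 1 of the 6 libraries (adjusted p up to 0.2), and that of Aldh3a2 without LKO CT14 replicate 2 (adjusted p up to 0.0603). None was called at CT2.

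The promoters of 3 of these shared genes hold an E-box, the site CACGTG that BMAL1 binds with CLOCK, and are shown with that site in capitals. They are the 250 bases before the gene start, from RefSeq on build GRCm38.p6, at chr12:84038129-84038378 on the plus strand for Acot4, chr11:61267187-61267436 on the minus strand for Aldh3a2 and chr3:104638414-104638663 on the plus strand for Slc16a1. Acot4 has a second stretch in capitals, a near match to the DR1.
Acot4: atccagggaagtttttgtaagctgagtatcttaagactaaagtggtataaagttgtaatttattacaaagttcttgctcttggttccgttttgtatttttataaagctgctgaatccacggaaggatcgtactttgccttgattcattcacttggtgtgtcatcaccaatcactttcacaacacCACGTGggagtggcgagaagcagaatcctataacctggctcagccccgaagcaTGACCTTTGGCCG
Aldh3a2: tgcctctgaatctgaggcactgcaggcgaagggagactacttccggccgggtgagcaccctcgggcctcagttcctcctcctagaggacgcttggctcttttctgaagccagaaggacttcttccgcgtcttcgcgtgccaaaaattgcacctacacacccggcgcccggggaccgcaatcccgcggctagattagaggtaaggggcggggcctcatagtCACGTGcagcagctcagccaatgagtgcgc
Slc16a1: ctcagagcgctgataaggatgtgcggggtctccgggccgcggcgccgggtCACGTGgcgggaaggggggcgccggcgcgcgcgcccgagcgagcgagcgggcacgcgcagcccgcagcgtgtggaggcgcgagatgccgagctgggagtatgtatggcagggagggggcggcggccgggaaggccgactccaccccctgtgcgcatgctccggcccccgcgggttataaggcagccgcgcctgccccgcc
The E-box starts 66, 30 and 200 bases before the start in Acot4, Aldh3a2 and Slc16a1. In both knockouts Acot4 and Aldh3a2 were lower and Slc16a1 was higher. These 3 were picked from genes called in these data, and 8.09% of all genes with a promoter window hold the site.

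Promoter windows of 300 bases, 250 before and 50 after the start, were found for 32 of the 37 genes. They were searched on both strands for the DR1 (2 copies of AGGTCA with 1 base between them), CACGTG (E-box), TTATGNAA (D-box) and the RORE (ANNT followed directly by AGGTCA, the unit that the DR1 repeats). None of the 32 held an exact match to any of them, against 0.0481%, 8.09%, 3.99% and 0.829% of all genes with a window. Allowing 2 mismatches, which was added after the exact matches were counted, 6 of 32 held a DR1 (Acox2, Cd36, Echs1, Etfa, Fabp1 and Slc25a20), against 4.4% of all genes. The match of Slc25a20, AGGTGAAAGGTCG, starts 6 bases after the start. Of these 6 genes Fabp1 and Slc25a20 were called in KO as the mean of both times, and of all 37 genes 11 were, a similar share. The E-box was in 13 of 59 other pathway genes with a window, among them the 3 shown above, against the same 8.09% of all genes. A match describes letters only, and its absence says nothing of the factor.

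The third comparison set CT14 against CT2 within each genotype. In WT, 1 of the 37 genes was higher and 2 were lower at CT14, against 1.1% and 1.44% of all genes, 2.54% together. Crot fell from 623, 646 and 1065 CPM to 169.5, 164 and 146 CPM, a log2 change of -2.28 ± 0.38 (SE, adjusted p = 0.00132), and Pdk4 fell from 8.04, 33.9 and 15.4 CPM to 3.23, 2.48 and 2.87 CPM, a change of -2.74 ± 0.50 (SE, adjusted p = 0.00322). Neither gene overlapped between the times. Pex11a rose from 50.1, 48.6 and 50.7 CPM to 76.2, 115 and 109 CPM, a change of 1.01 ± 0.25 (SE, adjusted p = 0.0347) that was lost with any 1 of the 6 libraries left out other than WT CT14 replicate 1 (adjusted p up to 0.171). Without overlap 5 genes were higher at CT14 (Fabp1, Echs1, Decr2, Pex11a and Ppara) and 5 lower (Crat, Crot, Etfdh, Acox2 and Pdk4), against 10.5% of all genes in each direction. The median over the 37 genes was 0.15.

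In KO, 0 of the 37 genes were called by edgeR and 0 by DESeq2, and 0 had an unadjusted p under 0.05. The same test called 0% of all genes, with 753 genes at an unadjusted p under 0.05. At CT2 the KO libraries held 367, 550.4 and 496 CPM of Crot, 27.4, 34.1 and 24.9 CPM of Pdk4 and 36.99, 54.04 and 31.9 CPM of Pex11a. At CT14 they held 538, 440.1 and 403 CPM of Crot, 28.04, 30.8 and 27.2 CPM of Pdk4 and 45.3, 43.9 and 29.9 CPM of Pex11a. All 37 genes overlapped between the times, whereas 4.09% of all genes were higher and 3.54% lower without overlap, and the 37 log2 differences ran from -0.42 to 0.67.

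In F 3 genes were higher at CT14 and 0 lower, against 1.33% of all genes in each direction, 2.66% together. Without the 2 KO libraries with spermatid transcripts, which enter the shared estimate of the spread, 6 genes were called, against 2.22% of all genes, and without the 3 libraries low in Ddx3y 7, against 3.58%. Decr2 rose from 98.9, 98.2 and 118 to 184, 184 and 153 CPM, 0.73 ± 0.14 (SE, adjusted p = 0.00463). Eci2 rose from 109, 116 and 125 to 247, 189 and 163 CPM, 0.78 ± 0.18 (SE, adjusted p = 0.0242), and Ppara from 66.5, 53.5 and 61.4 to 122, 128 and 129 CPM, 1.06 ± 0.28 (SE, adjusted p = 0.0439). The call of Ppara was lost without any 1 of the 6 libraries (adjusted p up to 0.114), and that of Eci2 with any 1 of the 6 libraries left out other than F CT2 replicate 3 and F CT14 replicate 3 (adjusted p up to 0.157). CT14 lay above CT2 without overlap for 16 of the 37 genes and below it for 0, against 9.97% and 9.2% of all genes, 19.2% together. Crot stood at 586, 664 and 179 CPM at CT2 against 185, 231 and 214 CPM at CT14, with overlap because F CT2 replicate 3 was low, and its change of -1.18 ± 0.37 (SE, adjusted p = 0.0975) was not called. Pdk4 was at -0.50 ± 0.47 (SE) and not called. F CT2 replicate 3, which also stood apart in pancreatic transcripts and in Ddx3y, lay below both other F libraries of CT2 for 15 of the 37 genes and above both for 17.

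In LKO 3 genes were higher at CT14 and 0 lower, against 0.444% and 0.405% of all genes, 0.848% together. Eci2 rose from 92.97, 126 and 108 to 176, 184 and 225 CPM, 0.84 ± 0.19 (SE, adjusted p = 0.0373). Pex11a rose from 26.5, 25.6 and 29.1 to 52.5, 49.3 and 77.8 CPM, 1.15 ± 0.25 (SE, adjusted p = 0.0385), and Slc27a2 from 671, 701 and 634 to 973, 992 and 1337 CPM, 0.72 ± 0.17 (SE, adjusted p = 0.048). These 3 were without overlap, but all 3 calls were lost without any 1 of the 6 libraries, with adjusted p between 0.0694 and 0.309. CT14 lay above CT2 for 18 of the 37 genes and below for 0, against 10.4% and 10.3% of all genes. The median over the 37 was 0.33 in LKO, 0.30 in F and -0.05 in KO.

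**Figure D4:**
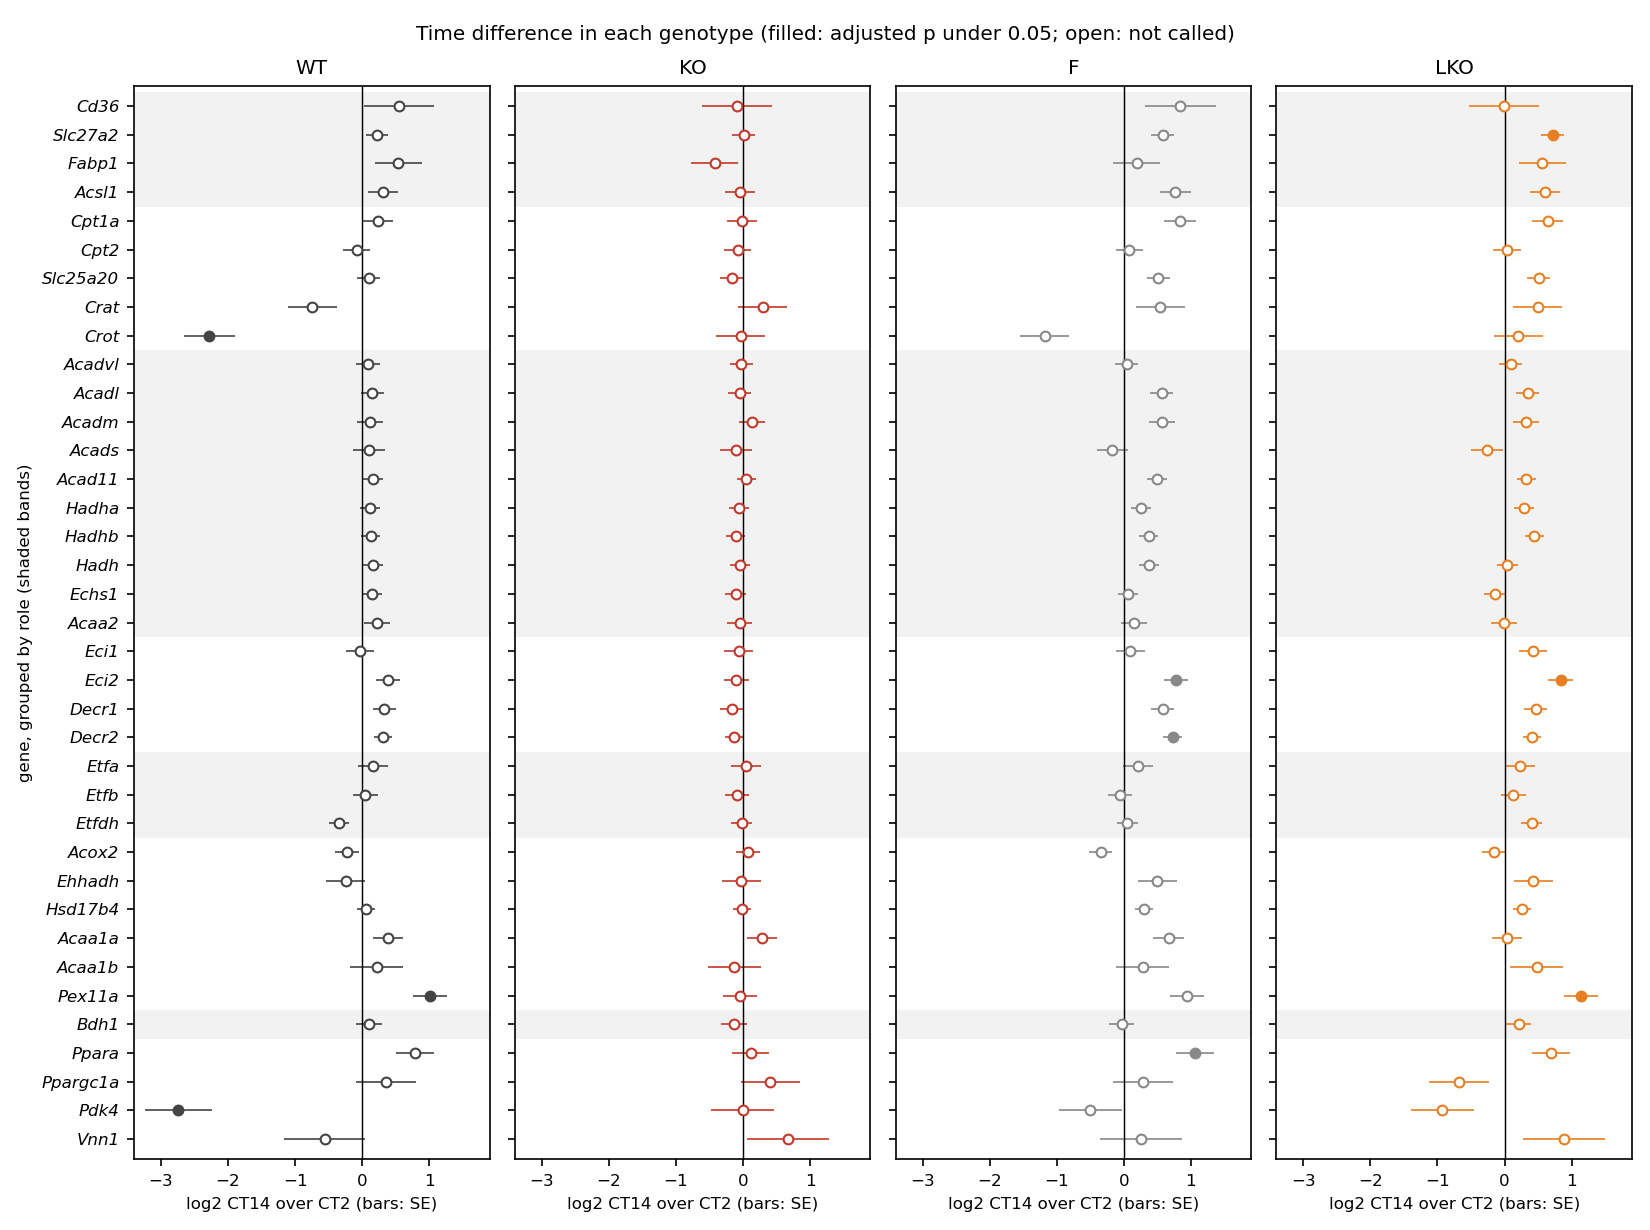
Log2 ratio of CT14 over CT2 for each gene in WT, KO, F and LKO, with bars of 1 SE and filled points where the adjusted p was under 0.05. Points of KO lie between -0.42 and 0.67, most points of F and LKO lie right of 0, and Crot and Pdk4 lie far left in WT.

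Whether the time difference itself differed was tested with an interaction. Between KO and WT it was called for Crot alone, at 2.25 ± 0.52 (SE, adjusted p = 0.0446), against 0.799% of all genes. That call was lost without both KO libraries with spermatid transcripts and in 3 other alternatives, and leaving out any 1 of the 12 libraries brought the adjusted p to between 0.0551 and 0.131 for Crot. Pdk4 had a larger value, 2.73 ± 0.67 (SE, adjusted p = 0.0655), and was not called, and Pex11a had -1.05 ± 0.36 (SE, adjusted p = 0.26). Between LKO and F 0 of the 37 genes were called by edgeR and by DESeq2, against 0.112% of all genes, and 1 had an unadjusted p under 0.05, Crot at 1.39 ± 0.52 (SE, adjusted p = 0.582). Of the other pathway genes, Slc16a1 and Plin2 were higher and Bdh2 and Lpin1 lower in the first test, and Ppard higher and Acacb lower in the second.

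**Figure D5:**
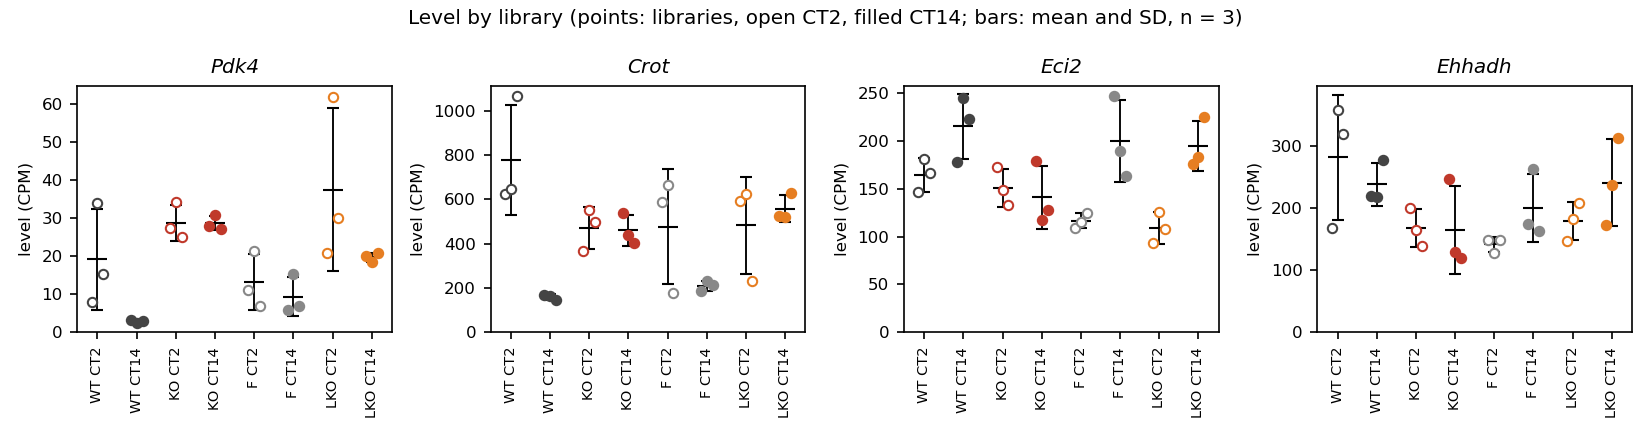
Level in CPM by library of Pdk4, Crot, Eci2 and Ehhadh, with CT2 open, CT14 filled and bars for the group mean and SD of 3 libraries. Crot and Pdk4 in WT are high at CT2 and low at CT14, while in KO the points of both times overlap.

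The last comparison set the controls of the 2 knockouts against each other. F was lower than WT, as the mean of both times, for 2 of the 37 genes and higher for 0, against 0.912% and 1.63% of all genes, 2.54% together. Decr2 had -0.47 ± 0.10 (SE, adjusted p = 0.0151) and Slc27a2 -0.55 ± 0.12 (SE, adjusted p = 0.0187), the second lost without WT CT2 replicate 3 or WT CT14 replicate 2 (adjusted p up to 0.0558), and without both F libraries with pancreatic transcripts (adjusted p = 0.0854). The median over the 37 genes was -0.22, and 30 values were negative. Bdh1 missed the threshold at -0.50 ± 0.13 (SE, adjusted p = 0.0503), as did Cpt1a at -0.53 ± 0.16 (SE, adjusted p = 0.0941). At CT2 the Decr2 levels of F, 98.9, 98.2 and 118 CPM, lay below those of KO, 116, 128 and 109 CPM, apart from 1 F library. The controls came from separate crosses, and nothing in the labels tells the cross apart from the handling of the livers.

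In the authors' deposited table of KO against WT over both times, 1 of the 37 genes was higher and 10 were lower at an adjusted p under 0.05. The higher gene in the authors' deposited table was Cd36 (adjusted p = 0.0427), not Pdk4 (adjusted p = 0.159). At CT14 the authors' deposited table had 3 higher and 14 lower, and at CT2 1 higher and 2 lower. Those called there at CT14 and not by edgeR were Acox2, higher, and Acaa2, Eci1, Eci2 and Acaa1a, lower. Their adjusted p in that table ran from 0.0222 for Acox2 to 0.0425 for Eci2. At CT2, where edgeR called none, they were Cd36, higher, and Acaa1b (adjusted p = 0.000219) and Vnn1 (adjusted p = 0.0146), lower. For LKO against F the authors' deposited tables had 1 higher and 0 lower over both times, 4 and 4 at CT14 and 0 at CT2. In the authors' deposited table of CT14 against CT2 in KO, 0 of the 37 were called. The share of all genes called in the authors' deposited tables was not computed, so these counts have no background beside them.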

How the data were processed

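Liver RNA of 24 libraries in 8 groups of 3 was analysed. Per the submitters' processing notes, which give no order or roles, the authors used fastp 0.23.2, HISAT2 2.2.1, StringTie 1.3.1 and build GRCm39. The annotation release and strand setting were not stated. Libraries were stranded and made from polyadenylated RNA, per the labels' protocols. The authors deposited estimated counts per gene, TPM values normalised by the authors for length and library size, and DESeq2 tables of log2 fold changes with p-values, whose model the file headers do not give. At low values, deposited counts that are multiples of 4 outnumbered neighbouring values by 1.36 to 1.53 times, so the counts may not be plain read numbers.

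Counts, already whole, were tested with edgeR 4.0.16 in R 4.3.3: TMM scaling, a minimum count of 10 and a minimum total of 15, a robust quasi-likelihood fit of 8 group means over all 24 libraries, and 14 contrasts. p-values were adjusted by Benjamini-Hochberg over 20514 genes, and a gene was called at an adjusted p under 0.05. SE is the size of the log2 fold change over the square root of F. Mean effects weight both times equally. The fit was tested on simulated data. CPM are counts over the TMM-scaled library total. Groups do not overlap where every library of 1 group exceeds every library of the other. Alternatives were RLE scaling, no filter, counts divided by 4, limma 3.58.1 on log2(TPM + 0.1), DESeq2 1.42.0, a replicate block, each library left out, and sets of libraries that stood apart left out.

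The members and lists were chosen with earlier results of these data known. All 37 members are accounted for: members called in any comparison are given by library, Cpt1a, Ppara, Acadm and Hadha in any case, and the others by range or contrast. Other pathway genes are named where called in a knockout comparison, apart from a result that is not reported here. The 76 other pathway genes are those of 77 listed that passed the filter. Promoters came from RefSeq on GRCm38.p6 and served for sequence only.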

Additional observations from a re-analysis of the deposited data

Results flagged for a closer look

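Among the 37 genes and the 76 other pathway genes, the time difference differed between genotypes for 7 genes by the interaction in edgeR. Of all genes 0.799% were called for KO against WT and 0.112% for LKO against F. Crot was the 1 gene of the 37 among them, and results with a library left out are given for Crot alone. The time effect in KO minus that in WT was 2.25 for Crot, the peroxisomal carnitine octanoyltransferase, with an adjusted p of 0.0446. The Crot call was lost with any 1 of the 12 libraries left out, at an adjusted p of 0.0551 to 0.131. The same difference was -1.71 for Bdh2 (adjusted p = 0.0406), 1.06 for the transporter Slc16a1 (adjusted p = 0.0169), -4.00 for the coactivator Lpin1 (adjusted p = 0.00247) and 1.3 for the lipid droplet gene Plin2 (adjusted p = 0.0128). At CT2 Lpin1 stood at 22.6, 37.1 and 18.1 CPM in WT and 28.1, 57.8 and 43.8 CPM in KO, and at CT14 at 459, 595 and 175 CPM in WT and 37.02, 40.04 and 50.8 CPM in KO. The time effect in LKO minus that in F was -2.71 for Acacb (adjusted p = 0.00423) and 2.34 for Ppard (adjusted p = 0.00545). At CT2 Ppard, another PPAR, stood at 53.8, 36.8 and 48.995 CPM in F and 36.5, 31.7 and 58.5 CPM in LKO, which overlapped, and at CT14 at 9.33, 13.04 and 11.3 CPM in F and 52.7, 53.5 and 48.3 CPM in LKO, which did not.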

How the results depend on the processing

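Of 36 calls of the 37 genes over all comparisons, 19 were kept when any 1 library was left out, 18 in every alternative run, and 0 reversed. Counts of genes called are given here where they moved by more than 1.5 times. With DESeq2 they were 2 for KO against WT at CT2, 2, 1 and 3 for LKO against F over both times, at CT2 and at CT14, 11 for the time difference in F, 2 for the time difference of KO against that of WT, and 3 for the KO effect against the LKO effect. Of all genes DESeq2 called, in the same order, 1.81%, 5.04%, 2%, 3.69%, 5.71%, 1.89% and 1.06%. In limma on TPM they were 5 and 2 for LKO against F over both times and at CT14, 8 for KO against WT at CT14 and 0 for the KO time difference against that of WT. Of all genes it called, in the same order, 7.96%, 4.05%, 6.81% and 0.653%. Without a filter they were 0 for LKO against F over both times, 0 for the time difference in LKO, 2 for that in F and 0 for KO against WT in time. The shares of all genes were 1.47%, 0.263%, 1.17% and 0.386%. With counts divided by 4, LKO against F at CT14 gave 1, against 2.64% of all genes. Without the KO libraries with spermatid transcripts the counts were 0 for LKO against F over both times, 6 for time in F and 0 for the KO time difference against WT. The shares of all genes there were 2.86%, 2.22% and 0.4%. Without the F libraries with pancreatic transcripts the counts were 0 and 1 for LKO against F over both times and at CT14, and 1 for F against WT. The shares of all genes there were 2.26%, 1.16% and 0.717%. Without the 3 libraries low in Ddx3y the counts were 1 for KO against WT at CT2, 3 and 3 for LKO against F over both times and at CT14, 7 for time in F, 1 for the LKO time difference against F, 1 for the KO against the LKO effect and 5 for F against WT. The shares of all genes there were 0.453%, 3.93%, 3.56%, 3.58%, 0.401%, 0.151% and 3.17%.

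Leaving out 1 library at a time gave 9 to 14 genes for KO against WT over both times and 6 to 12 at CT14. Over all genes those fits called 763 to 987 and 632 to 902. LKO against F over both times gave 0 to 4, against 415 to 694 of all genes. The time difference in WT, F and LKO gave 2 to 3, 1 to 3 and 0 to 0. Over all genes it gave 270 to 414, 240 to 578 and 10 to 59. The KO time difference against WT gave 0 to 1, and so did the KO against the LKO effect. Over all genes these gave 101 to 158 and 7 to 44. F against WT gave 1 to 3, against 236 to 477 of all genes. These fits tested 21253 to 21340 genes. With the replicate block the counts were 12 and 9 for KO against WT over both times and at CT14, 2 and 1 for LKO against F, 2 for time in F and 0 for time in LKO. The shares of all genes there were 4.89%, 5.07%, 2.84%, 1.68%, 2.58% and 0.395%. Replicate numbers were not treated as pairs, and the labels do not state any pairing. Deviations of same-numbered libraries correlated at -0.146 to 0.312 (median -0.00571) over 84 pairs of libraries from different groups. Those of differently numbered libraries correlated at -0.297 to 0.188 (median 0.0038) over 168 pairs. These ranges cannot exclude pairing between some libraries. With 3 libraries a group, a difference that was not called is not shown to be absent.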
